A study of Mus musculus with 12 samples.

Results

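The set described here holds 10 genes that mark testicular macrophages: Csf1r, Adgre1, Cd163, Mrc1, Cd14, Cd68, Lyz2, C1qa, C1qb and C1qc. Members were taken by name from the non-control probes of the array, with Adgre1 listed there under its older symbol Emr1 and Lyz2 under Lyzs. That gave 14 of 41174 probes. All 10 genes had at least 1 probe past the filter on dim signals, among 15830 genes tested.

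The study compared laser-captured Leydig cells, which make testosterone between the seminiferous tubules, from mice given a plasticiser or its vehicle. The DEHP mice, numbered 1 and 4, were male C57BL/6J mice aged 21 weeks that had received di-(2-ethylhexyl) phthalate (DEHP) in corn oil at 200 mg per kg per day by gavage for 21 days. The vehicle mice, numbered 1, 2 and 4, shared strain, sex and age and received corn oil alone. Every pairing of a DEHP with a vehicle mouse was hybridised to a pair of two-colour arrays with the dyes exchanged, 12 arrays in all. Each extract came from 1 cap of a single mouse and was amplified in 2 rounds, so the 5 mice are the replicates.

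Macrophages are the most abundant immune cells of the testis interstitium, where they lie beside Leydig cells. In rodents their membranes interlock with those of Leydig cells. They depend on signals through the CSF1 receptor, clear debris and haemoglobin through scavenger receptors, and secrete lysozyme and complement C1q. In such bulk material, fewer macrophages in the testis, fewer in the captured area and less RNA per macrophage cannot be told apart.

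Between 45.4% and 54.4% of probe spots in the red channel and 35.5% to 46.1% in the green one exceeded background clearly, and 0 member spots were saturated. All 11 listed Leydig cell genes, such as Lhcgr and Hsd17b3, were measured, but so were 10 of 10 spermatid, 10 of 11 Sertoli cell and 6 of 6 peritubular myoid genes. Detection therefore does not set the labelled cell type apart from the others. DEHP mouse 4 and vehicle mouse 1 stood apart from the other 3 mice in several of these lists, and the vehicle mouse 4 arrays all lay on a slide of their own.

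Probes are shown first, because for the genes with several probes only the most downstream one on the gene's strand was detected in every channel. Each array gives a channel to a DEHP mouse and a channel to a vehicle mouse, 24 in all. The Lyz2 probe at mm7 chr10:116785279-116785338 (minus strand) was well above background in 24 of 24 channels. Its counterpart 4725 bases upstream, at chr10:116790004-116790063, was above background in 13 of 24 channels, 5 of DEHP and 8 of vehicle RNA. The downstream Adgre1 probe at chr17:55686649-55686708 (plus strand) was detected in 24 channels, and the probe 72895 bases upstream, at chr17:55613754-55613813, in 0. Csf1r behaved likewise, with 24 channels for its most downstream probe, 13 for a probe 685 bases upstream and 0 for a probe 20962 bases upstream. These probe sequences show the detected and the poorly detected or undetected regions of Lyz2 and Adgre1. The first 30 bases are given for the downstream probes and the whole probe for the upstream ones, 5′ to 3′ as in the deposited files:
Lyz2 downstream probe: cttaagttccttcattcacactaactctga
Lyz2 upstream probe: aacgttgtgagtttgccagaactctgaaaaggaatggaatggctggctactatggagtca
Adgre1 downstream probe: ttgtgtttcctatgcactttcttgtggtgt
Adgre1 upstream probe: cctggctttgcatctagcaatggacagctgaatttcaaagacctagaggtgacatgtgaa

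The other probes, 1 for each gene, fell into the same 2 kinds of detection. Cd163, Mrc1, C1qc and Cd14 were well above background in 24 of 24 channels. The Cd163 probe (chr6:124312766-124312825, plus strand) held the letters AATAAA, the common polyadenylation signal, from base 43, given in capitals. C1qa, C1qb and Cd68 were above background in 15 of 24 channels each. For C1qa these were 7 channels of DEHP and 8 of vehicle RNA, for C1qb 7 and 8, and for Cd68 8 and 7. Sequences of these probes are given to show what was read for each gene, and the positions of C1qc, C1qa and C1qb place the 3 C1q genes side by side on chromosome 4 (minus strand):
Cd163 probe, part around the signal: aaaaatgttattAATAAAgaaacggaaatc
Mrc1 probe at chr2:14281098-14281158, first 30 bases: ttgagaactgtatttatccacatgtagaat
C1qc probe at chr4:136268288-136268347, first 30 bases: tctgggaaccacctaatggtattattcctg
C1qa probe at chr4:136274931-136274990: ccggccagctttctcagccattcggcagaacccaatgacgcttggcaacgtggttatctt
C1qb probe at chr4:136259100-136259159: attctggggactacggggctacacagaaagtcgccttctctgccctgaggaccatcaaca
Cd68 probe at chr11:69746386-69746445, minus strand: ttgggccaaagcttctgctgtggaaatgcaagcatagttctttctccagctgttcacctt

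**Figure D1:**
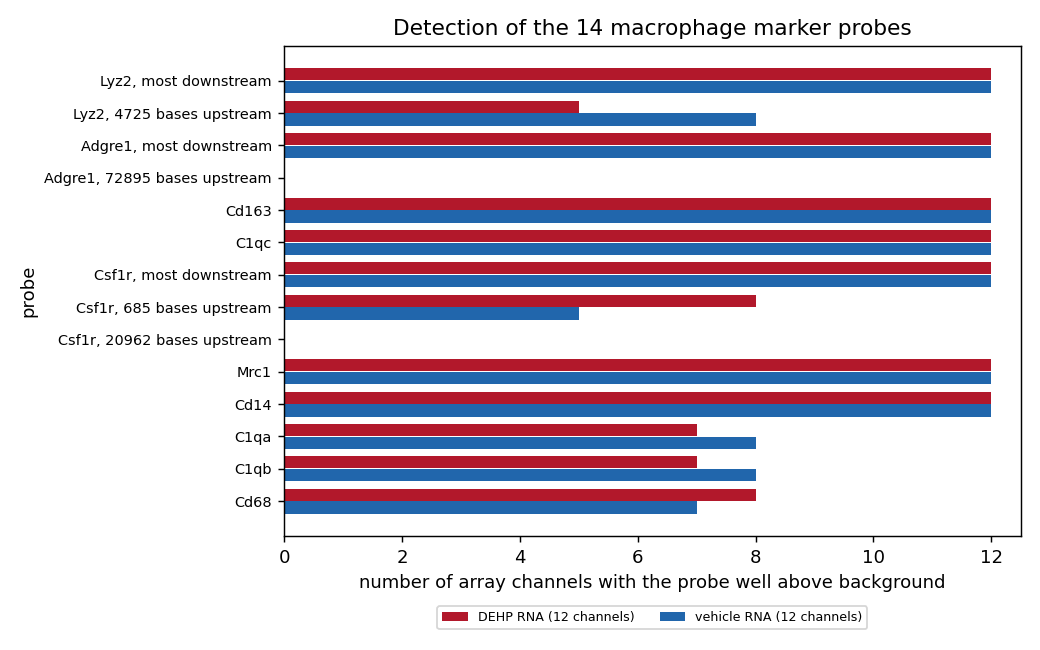
Number of array channels, of 12 with DEHP RNA (red) and 12 with vehicle RNA (blue), in which each of the 14 probes was well above background. The most downstream probes of Lyz2, Adgre1 and Csf1r fill all 24 channels, while the probes farther upstream fill 13 or 0, and C1qa, C1qb and Cd68 reach 15.

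No macrophage marker passed the test between DEHP and vehicle mice, and the groups overlapped for 9 of the 10. In limma, 0 of 10 members had an adjusted p under 0.05, against 0% of all genes tested, and 0 of 10 had an unadjusted p under 0.05, against 0.859% of all genes. The smallest unadjusted p was 0.414 and all adjusted p were 1.00. The log2 difference was above 0 for 4 members and below 0 for 6, with a median of -0.11, beside 48.3% above 0 and a median of -0.01 over all genes. The values that follow are log2 levels per mouse, set against the mean over all 5 mice, means are given ± SD with n = 2 DEHP and n = 3 vehicle mice, and the text follows the roles of the genes.

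Csf1r is the receptor for CSF1 and IL-34 on which macrophage survival rests. Csf1r stood at 0.57 (mouse 1) and -0.83 (mouse 4) with DEHP, against -0.46, 0.25 and 0.47 in vehicle mice 1, 2 and 4. The DEHP mice thus spanned the whole range of the vehicle mice. The means were -0.13 ± 0.99 with DEHP and 0.09 ± 0.49 with vehicle, a log2 difference of -0.22 (SE 0.50). The Csf1r probe 685 bases upstream, above background in 13 channels, stood at 0.21 (mouse 1) and -0.04 (mouse 4) with DEHP. Vehicle mice 1, 2 and 4 stood there at -0.14, -0.10 and 0.07, so vehicle mice 1 and 2 lay lowest. With the kept probes averaged, the Csf1r difference between the groups was -0.04.

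Adgre1 encodes an adhesion receptor by which mouse macrophages are commonly stained. It stood at 0.55 (mouse 1) and -0.97 (mouse 4) with DEHP, against -0.78, 0.16 and 1.05 in vehicle mice 1, 2 and 4. DEHP mouse 4 was the lowest and vehicle mouse 4 the highest of the 5. The difference of -0.36 (SE 0.67) had a 95% interval from -2.01 to 1.29.

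Cd163, the scavenger receptor for haptoglobin-haemoglobin complexes, stood at 0.90 (mouse 1) and -0.71 (mouse 4) with DEHP, against -0.93, 0.08 and 0.66 in vehicle mice 1, 2 and 4. Each group held a mouse near the top and a mouse near the bottom of the range. Its difference was 0.16 (SE 0.64, 95% interval -1.42 to 1.74). Mrc1 encodes the mannose receptor CD206, a marker of resident macrophages. It stood at 0.40 (mouse 1) and -0.24 (mouse 4) with DEHP, against -0.39, -0.19 and 0.42 in vehicle mice 1, 2 and 4, a difference of 0.14 (SE 0.34), with the same 2 mice highest and the same 2 lowest as for Cd163.

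Cd14 is the co-receptor that hands bacterial lipopolysaccharide to TLR4. It was nearly equal in both DEHP mice, at -0.10 and -0.09, against -0.24, 0.03 and 0.40 in vehicle mice 1, 2 and 4. Unlike the other 6 members detected in all channels, Cd14 did not have DEHP mouse 4 among its lowest 2 mice. The difference was -0.16 (SE 0.25).

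Cd68, a lysosomal membrane glycoprotein of phagocytes, was the only member whose groups did not overlap. It stood at 0.18 (mouse 1) and 0.02 (mouse 4) with DEHP, against -0.07, -0.09 and -0.04 in vehicle mice 1, 2 and 4. That is 1 of 10 members in which each DEHP mouse exceeded every vehicle mouse, where 3.95% of all genes had this order, 5.22% the opposite order and 9.17% either. The Cd68 difference of 0.16 (SE 0.18, adjusted p = 1.00) lay within an interval of -0.29 to 0.62. Its signal was above background in only 15 of 24 channels.

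Lyz2, the lysozyme of macrophages and other myeloid cells, varied most among the 5 mice. It stood at 0.90 (mouse 1) and -1.50 (mouse 4) with DEHP, against -0.87, 0.58 and 0.90 in vehicle mice 1, 2 and 4. The highest DEHP and the highest vehicle mouse were level, and DEHP mouse 4 lay lowest. The means were -0.30 ± 1.70 with DEHP and 0.20 ± 0.94 with vehicle, a difference of -0.51 (SE 0.84, 95% interval -2.60 to 1.58). The upstream Lyz2 probe, above background in 13 channels, kept the lowest place of DEHP mouse 4 over a narrower range: 0.03 (mouse 1) and -0.27 (mouse 4) with DEHP, against -0.08, 0.05 and 0.26 in vehicle mice 1, 2 and 4. Lyz1 is a close copy of Lyz2, and cross-hybridisation between them was not tested. The Lyz1 probe stood at 0.54 (mouse 1) and -0.90 (mouse 4) with DEHP, against -0.31, -0.02 and 0.69 in vehicle mice 1, 2 and 4.

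The 3 chains of C1q, the recognition molecule of the classical complement pathway, are made chiefly by macrophages. C1qc stood at 0.70 (mouse 1) and -1.01 (mouse 4) with DEHP, against -0.68, 0.33 and 0.65 in vehicle mice 1, 2 and 4, a difference of -0.26 (SE 0.62). C1qb stood at 0.31 (mouse 1) and -0.24 (mouse 4) with DEHP, against -0.12, -0.04 and 0.10 in vehicle mice 1, 2 and 4, a difference of 0.06 (SE 0.24). C1qa stood at 0.05 (mouse 1) and -0.13 (mouse 4) with DEHP, against -0.14, -0.22 and 0.44 in vehicle mice 1, 2 and 4, a difference of -0.07 (SE 0.27). C1qc and C1qb had the same lowest mice, DEHP mouse 4 and vehicle mouse 1, while the lowest mouse for C1qa was vehicle mouse 2.

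**Figure D2:**
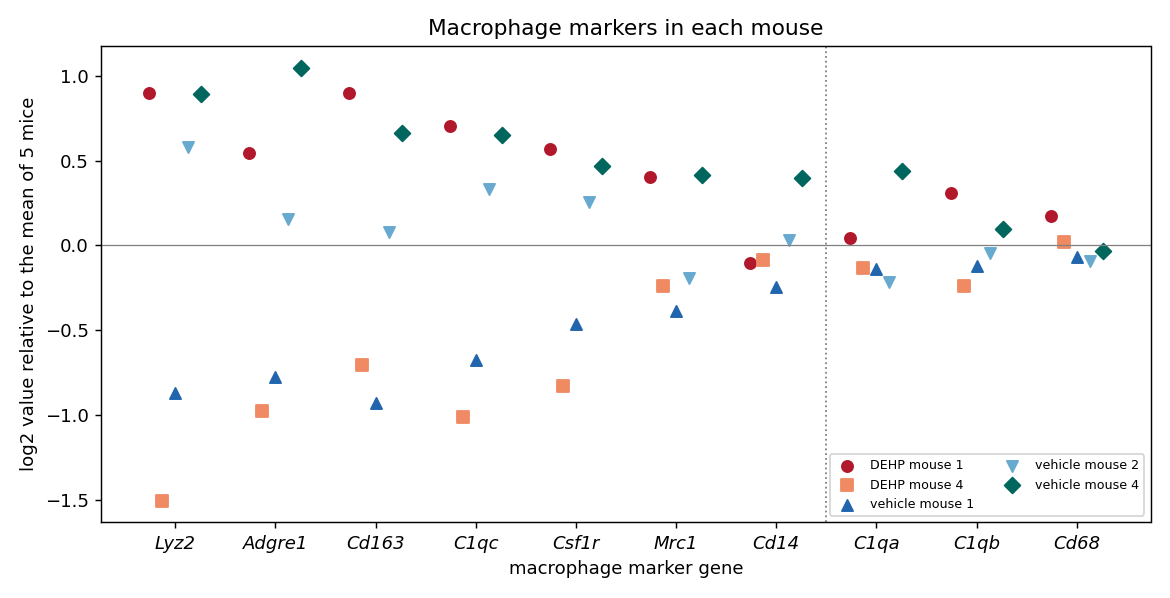
Log2 value of each of the 10 markers in each mouse, with 0 at the mean over all 5; red and orange points are DEHP mice, blue and green points vehicle mice, and the dotted line separates the 7 genes detected in all 24 channels from the 3 detected in 15. For the 5 genes at the left, DEHP mouse 4 and vehicle mouse 1 lie below the other mice, so that both groups span the range.

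**Figure D3:**
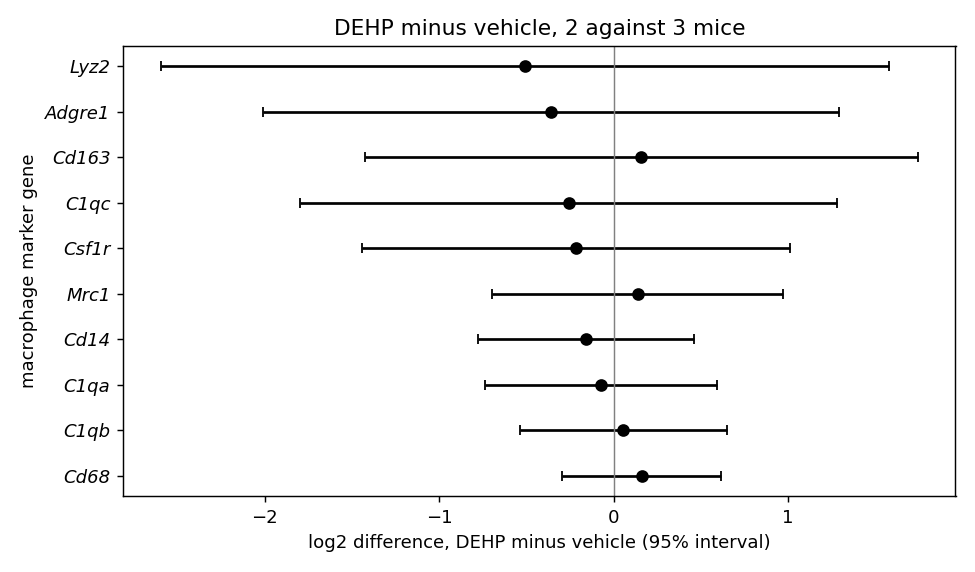
Log2 difference, DEHP minus vehicle, for each marker (points) with its 95% interval from limma (lines; 2 DEHP and 3 vehicle mice). Every interval crosses 0, from the widest for Lyz2 (-2.60 to 1.58) to the narrowest for Cd68 (-0.29 to 0.62).

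The order of the mice was largely shared by the members. DEHP mouse 4 and vehicle mouse 1 were the lowest 2 mice for 7 of 10 members, an order found in 29.3% of all genes. Either DEHP mouse 1 or vehicle mouse 4 was the highest for 10 of 10 members and for 33.1% of all genes. The median of the 10 members was 0.47 (mouse 1) and -0.47 (mouse 4) with DEHP, against -0.43, 0.06 and 0.45 in vehicle mice 1, 2 and 4. The spread over the 5 mice, highest minus lowest, ran from 0.64 for Cd14 to 2.40 for Lyz2 among the 7 members detected in all channels, and from 0.27 for Cd68 to 0.66 for C1qa among the other 3. These mice were set apart after earlier results of the same data had been seen.

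Differences between extracts were then measured on the 12 arrays, where the spread is between arrays of the same extracts and says nothing of the conditions. DEHP mouse 4 was lower than DEHP mouse 1 for 7 of 10 members and higher for 0, with limma's adjusted p under 0.05. Over all genes 41.1% were lower, 36.3% higher and 77.4% called in either direction. Lyz2 was lower by a log2 difference of -2.40 (SE 0.06, adjusted p = 6.20e-11), C1qc of -1.71, Cd163 of -1.60, Adgre1 of -1.52, Csf1r of -1.40, Mrc1 of -0.64 and C1qb of -0.55. Cd68 (-0.16), Cd14 (0.02) and C1qa (-0.18) did not pass. With the scanner software's processed signals, Cd68 was at -0.96 (adjusted p = 0.00103) and C1qb at -2.22, and without slide 3 Cd68 passed as well, at -0.23 (adjusted p = 0.0211). The adjusted p of Cd68 ran from 0.00103 to 0.551 over the alternatives. The median over the 10 members was -1.02, beside -0.05 over all genes. Arrays centred on their medians in place of loess put the median of all genes at 0.30 and that of the members at -0.58. On that scale 7 members were lower and Cd14 was higher by 0.32, against 16.3% of all genes lower and 54.7% higher. The differences were then -1.15 for Lyz2, -0.74 for Adgre1, -0.90 for Cd163, -0.83 for C1qc and -0.85 for Csf1r. With loess, each of the 3 slides gave the same direction for the 7 called members. Lyz2, for example, differed by -2.34, -2.46 and -2.40 on slides 1, 2 and 3, and Csf1r by -1.39, -1.53 and -1.29.

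Vehicle mouse 1 was lower than the mean of vehicle mice 2 and 4 for 7 members and higher for 0, where 38.2% of all genes were lower, 33.9% higher and 72.1% either. With median centring 8 members were lower, against 38.1% of all genes lower and 25.4% higher. Lyz2 was lower by a log2 difference of -1.61 (SE 0.06, adjusted p = 1.59e-09), Adgre1 of -1.38, Cd163 of -1.30, C1qc of -1.17, Csf1r of -0.83, Mrc1 of -0.50 and Cd14 of -0.46. Cd68 (-0.00), C1qa (-0.25) and C1qb (-0.15) did not pass. C1qb was at -0.93 with processed signals (adjusted p = 0.00189, and from that to 0.329 over the alternatives), and C1qa passed with median centring at -0.25 (adjusted p = 0.0462, highest 0.865). Within slides 1 and 2, which hold vehicle mice 1 and 2 together, Lyz2 differed between these mice by -1.33 and -1.57, Cd163 by -0.99 and -1.03, and Adgre1 by -0.92 and -0.95.

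Vehicle mouse 4 was higher than vehicle mouse 2 for 8 members and lower for 0, where 28.3% of all genes were higher, 29.1% lower and 57.4% either. With median centring 8 members were again higher, against 38.6% of all genes higher and 9.06% lower, with the median of all genes at 0.19. Adgre1 was higher by 0.89 (SE 0.05, adjusted p = 1.43e-07), C1qa by 0.66, Mrc1 by 0.61, Cd163 by 0.58, Cd14 by 0.37, C1qc by 0.32, Lyz2 by 0.31 and Csf1r by 0.22. Cd68 (0.06) and C1qb (0.14) did not pass. These 2 mice never shared a slide, so mouse and slide cannot be told apart here. With the scanner software's processed signals 2 members passed in place of 8, and without slide 1 there were 5.

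**Figure D4:**
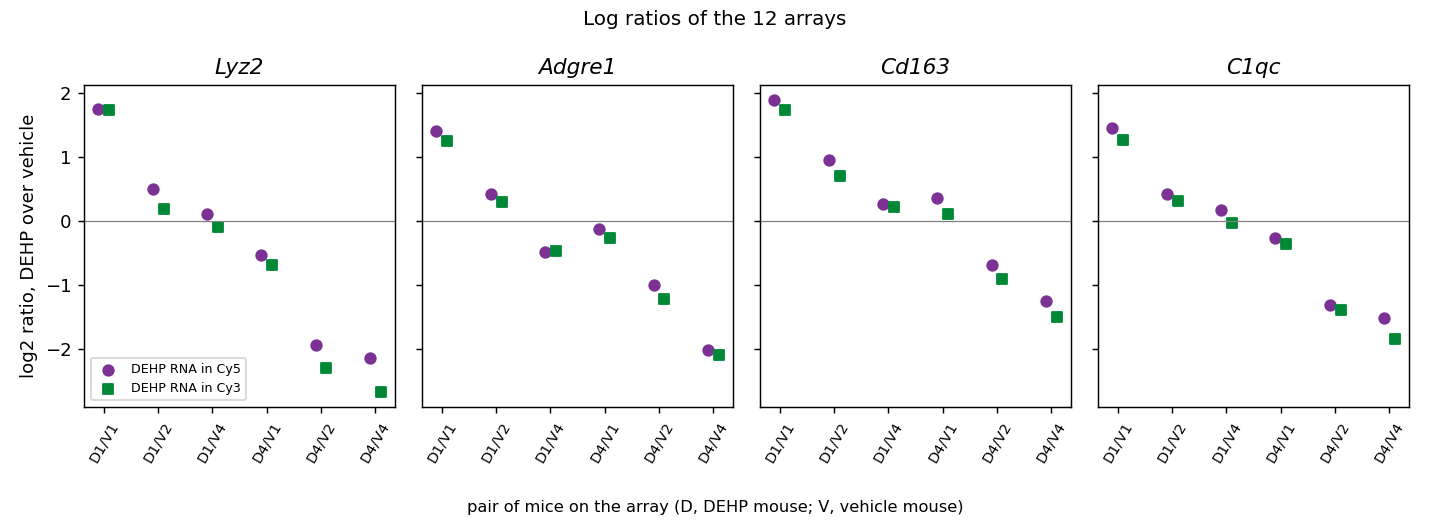
Log2 ratio of DEHP over vehicle RNA on each of the 12 arrays for 4 markers, by pair of mice (D1/V1 is DEHP mouse 1 over vehicle mouse 1); purple circles are arrays with DEHP RNA in Cy5 and green squares arrays with DEHP RNA in Cy3. The 2 dye orientations of a pair mostly lie close together beside the differences between pairs, but Lyz2 gave -2.14 and -2.66 for D4/V4. Across the pairs the Lyz2 ratio runs from 1.74 for D1/V1 to -2.66 for D4/V4.

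The sign of the Lyz2 array ratio differed with the pair of mice. DEHP mouse 1 over vehicle mouse 1 gave 1.74 and 1.73 in the 2 dye orientations, whereas DEHP mouse 4 over vehicle mouse 4 gave -2.14 and -2.66. The residual SD of the arrays around the fit was 0.11 for Lyz2 and 0.06 for Adgre1, small beside these differences. It was 0.24 for C1qa and 0.24 for Cd68, a spread of single arrays and not of the groups. The group differences of C1qa (-0.07) and Cd68 (0.16) had SEs between mice of 0.27 and 0.18. The median difference between DEHP and vehicle over the 10 members was -0.43 when DEHP mouse 1 was left out and 0.43 when DEHP mouse 4 was. Leaving out vehicle mouse 1 gave -0.29 and leaving out vehicle mouse 4 gave 0.11. With both DEHP mouse 4 and vehicle mouse 1 left out it was 0.19, from 1 DEHP mouse against 2 vehicle mice, where the spread comes from the vehicle mice alone.

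A wider list of 40 macrophage and myeloid genes had 30 measured. Itgam, Spi1, Siglec1 and Ccr2 were among those that did not pass the filter. In DEHP against vehicle mice 0 of the 30 passed, against 0% of all genes tested. Beside 48.3% of all genes above 0 (median -0.01), the list had 7 differences above 0 and 23 below (median -0.09). Its 2 genes of lowest p were Aif1, an actin-binding protein of macrophages also known as IBA1, at 0.55 (SE 0.29), and the transcription factor Irf8 at -0.68 (SE 0.60).

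The wider list followed the members by mouse, with medians of 0.30 (mouse 1) and -0.38 (mouse 4) with DEHP, against -0.45, 0.07 and 0.44 in vehicle mice 1, 2 and 4. Between DEHP mice 4 and 1, 24 of the 30 were lower and 3 higher with loess (41.1% and 36.3% of all genes), and 18 lower and 4 higher with median centring (16.3% and 54.7% of all genes). Factor XIII A (F13a1) was lower by a log2 difference of -2.14, and Trem2, a receptor for lipids and debris, by -1.61. With loess, the 3 higher genes were Aif1 (0.56), the scavenger receptor Msr1 (0.30) and Fcgr3 (0.21). These examples were picked after their values were seen. Aif1 also stood higher in vehicle mouse 1 than in vehicle mice 2 and 4, by 0.54, the opposite of the members.

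Genes that act with the members passed the test between DEHP and vehicle in no case, against 0% of all genes tested. Over all genes 48.3% of differences lay above 0, with a median of -0.01. Of 8 genes listed as CSF1 receptor ligands and signalling 7 were measured, 5 above 0 and 2 below, with a median of 0.04. This list also holds Csf2ra (0.04) and Csf2rb (0.04), which encode chains of other cytokine receptors. The adaptor Dok2 differed by 0.33 (SE 0.28) and the second CSF1 receptor ligand Il34 by -0.11 (SE 0.22). Of 16 complement genes 10 were measured, 2 above 0 and 8 below, with a median of -0.06. Cfi, the protease that inactivates C3b, differed by -0.27 (SE 0.31), and C2, which C1 cleaves, by -0.59 (SE 0.95). Of 14 partners of Cd14, Cd163 and other scavenger receptors 9 were measured, 1 above 0 and 8 below, with a median of -0.14. Tlr2 differed by -0.70 (SE 0.44) and the haem transporter Slc48a1 by -0.48 (SE 0.48). By mouse, C2 stood at 0.89 (mouse 1) and -1.60 (mouse 4) with DEHP, against -1.15, 0.98 and 0.87 in vehicle mice 1, 2 and 4, the order of the macrophage markers except that vehicle mouse 2 lay highest. Between DEHP mice 4 and 1, 7 of the 10 complement genes were lower and 2 higher with loess (41.1% and 36.3% of all genes). The 2 higher were Cfi (0.72) and Cd55 (0.91), the opposite of C2. With median centring 6 were lower and 3 higher (16.3% and 54.7% of all genes).

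Several other cell type lists differed between the mice as well. The 11 Leydig cell genes had medians of 0.74 (mouse 1) and -0.78 (mouse 4) with DEHP, against -0.60, 0.34 and 0.50 in vehicle mice 1, 2 and 4, the same 2 mice lowest as for the macrophage markers. DEHP mouse 4 was lower than DEHP mouse 1 for 11 of 11, and vehicle mouse 1 lower than the other vehicle mice for 10 of 11, with both normalizations. The 10 spermatid genes ran the other way, at 0.03 (mouse 1) and 0.86 (mouse 4) with DEHP, against 0.22, -0.65 and -0.47 in vehicle mice 1, 2 and 4, and DEHP mouse 4 was higher than DEHP mouse 1 for 10 of 10 with both. The counts for DEHP mouse 4 stand beside 41.1% of all genes lower and 36.3% higher with loess, and 16.3% and 54.7% with median centring. Those for vehicle mouse 1 stand beside 38.2% lower and 33.9% higher with loess, and 38.1% and 25.4% with median centring. Sertoli cell genes (10 of 11 measured) kept near 0, at -0.17 and -0.02 in DEHP mice, against 0.11, 0.00 and 0.05 with vehicle. For these, DEHP mouse 4 was higher for 3 and lower for 3 with loess, and higher for 8 and lower for 1 with median centring. Endothelial genes (6 of 8 measured) stood at 0.25 and -0.40 in DEHP mice, against -0.60, 0.44 and 0.16 with vehicle. Peritubular myoid genes (6 of 6) stood at 0.07 and -0.95 in DEHP mice, against -0.36, 1.13 and 0.26 with vehicle. For endothelial and peritubular myoid genes too, DEHP mouse 4 and vehicle mouse 1 were the lowest 2 mice. Of 11 genes of T cells, B cells and mast cells 4 were measured, and Cd3g, Cd4, Cd79a, Cpa3, Tpsb2 and Cma1 were among those that did not pass the filter. The part of these lists in the macrophage marker values was not tested.

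With the Leydig cell median of the same extract subtracted, the macrophage markers detected in all channels spanned a narrower range than before. Only this list was subtracted, although other lists had the same 2 mice lowest. The 7 members detected in all channels had medians of 0.57 (mouse 1) and -0.83 (mouse 4) with DEHP, against -0.68, 0.16 and 0.65 in vehicle mice 1, 2 and 4. Minus the median of the Leydig cell genes, these became -0.17 (mouse 1) and -0.05 (mouse 4) with DEHP, against -0.07, -0.18 and 0.15 in vehicle mice 1, 2 and 4. The groups overlapped on this scale too, and it is given as a description with no test.

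**Figure D5:**
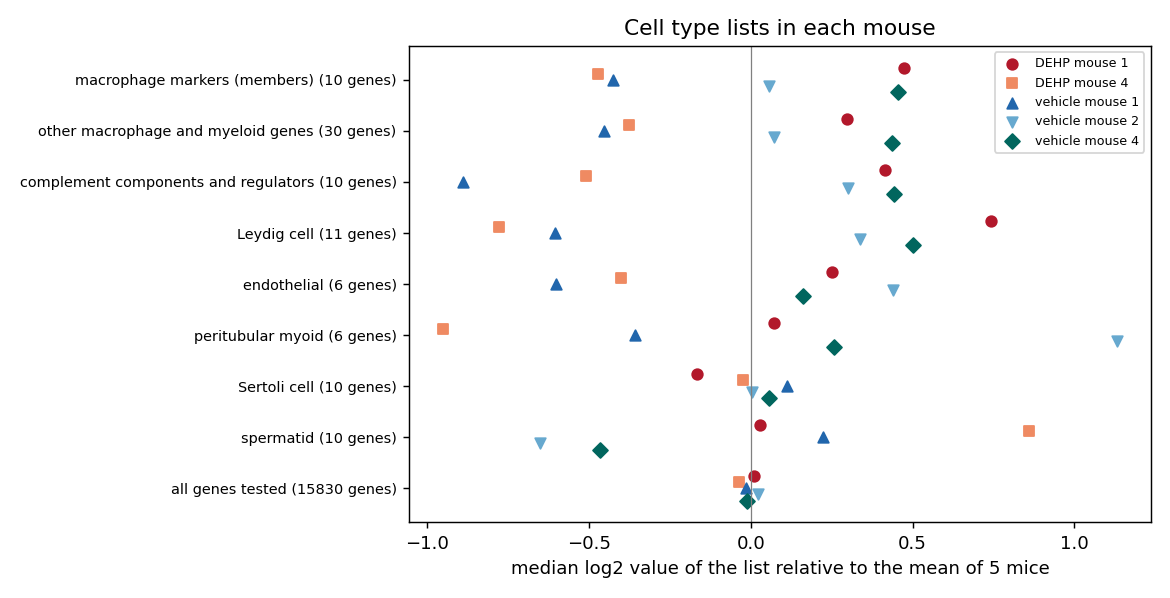
Median log2 value of each gene list in each mouse, with 0 at the mean over all 5 and the number of genes measured in brackets; symbols as in the plot of the markers by mouse. Macrophage, other myeloid, complement, Leydig cell, endothelial and peritubular myoid genes all lie lowest in DEHP mouse 4 and vehicle mouse 1. Spermatid genes lie high there, and all 15830 genes together lie near 0.

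The genes outside the lists whose 5 mouse values lay nearest to the members' median profile included Map1lc3b, Fxyd1, Paox, Cnrip1 and Nme3. Their root mean square distances from that profile, over 5 mice, ran from 0.05 for Map1lc3b to 0.06 for Nme3 on the log2 scale. Map1lc3b, an autophagosome protein, stood at 0.40 (mouse 1) and -0.53 (mouse 4) with DEHP, against -0.43, 0.06 and 0.51 in vehicle mice 1, 2 and 4.

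Promoter windows around the start site were at hand for 6 members (RefSeq, GRCm38.p6). They were searched on both strands for GAGGAA, core letters bound by the macrophage transcription factor PU.1, and for the longer GAGGAAGT, which contains it. GAGGAA occurred in 4 of 6 windows (C1qb, C1qc, Cd68 and Mrc1), against 28.28% of 32851 windows of the same length. GAGGAAGT occurred in 1 of 6, that of C1qc, against 3.2%. A match is only a description of the letters. The C1qc match lies 195 bases before the start site, on the strand opposite to the gene (ACTTCCTC as read here), and the C1qb match 30 bases before it. They are shown, with the letters in capitals, as the matches in neighbouring genes of the C1q cluster, while the matches of Cd68 and Mrc1 are not printed:
C1qc promoter, chr4:136893086-136893125, minus strand: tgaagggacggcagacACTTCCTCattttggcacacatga
C1qb promoter, chr4:136886207-136886246, minus strand: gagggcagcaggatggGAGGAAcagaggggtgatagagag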

How the data were processed

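RNA of laser-captured Leydig cells from 2 DEHP and 3 vehicle mice was measured on 12 two-colour arrays on 3 slides of 4. Vehicle mice 1 and 2 lie on slide 1 (DEHP RNA in Cy5) and again on slide 2 (dyes exchanged), and vehicle mouse 4 on slide 3 (both orientations). Scanner files, made with Feature Extraction 9.5.1.1 per their headers, were deposited with spot intensity, local background and flags for spots above background, saturated or outlying. Per the file headers they also hold a processed intensity and a red-over-green log10 ratio, which served to check directions. The authors' deposited value table was read as log2 ratios of DEHP over vehicle. No source used here states its scale, direction, normalization or row key. Its rows were matched to spot row numbers because its columns then followed the scanner's log2 ratios (r = 0.915 to 0.993, slopes 0.842 to 0.932, column medians -0.06 to 0.00). Of software, only limma is named in the submitters' processing notes, without its version.

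From these files, background was corrected with normexp (offset 50) and each array normalized with loess in R 4.3.3 with limma 3.58.1. The offset narrows differences of dim probes. Control spots and outlier spots were left out, and spots of a probe averaged. Least squares gave 1 value per mouse and a dye effect. Kept were probes well above background on 50% or more of the arrays of 2 or more mice (21197 of 41174), and the brightest probe stood for a gene. Groups were compared with limma on the 5 mouse values and extracts on the 12 arrays, with Benjamini-Hochberg adjustment over 15830 genes and a threshold of 0.05. The array number limits the precision. The functions were tested on simulated arrays. Probe positions are those of the files (mm7), with no annotation of that build used here.

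The members and gene lists were chosen with earlier results of these data known. The naming rule took all 10 members, for each other list the genes past the threshold, up to 3, filled up to 2 by lowest p, and the 6 genes nearest to the members' median profile. Some genes it took are not reported here. The alternatives tried concerned background, normalization, filter, probes per gene, outliers, dye, slide, left-out mice, unit of replication and the authors' table.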

Additional observations from a re-analysis of the deposited data

How the results depend on the processing

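Between DEHP and vehicle 0 members passed under all 19 alternatives. No gene at all passed with the 5 mice, and several alternatives have 1 DEHP mouse, assumed to vary like the vehicle mice, so this count says nothing about stability. The median over the members was -0.11 and ran from -0.43 to 0.43 when 1 mouse was left out. It was 0.10 on slide 1 alone and 0.10 on slide 2 alone. On slide 3 alone, which holds 1 vehicle mouse, it was -0.53, the lowest of the alternatives. Of 183 member differences recomputed 155 kept their sign and 28 reversed. Leaving out 1 mouse, differences ran from -1.12 to 0.40 for Adgre1, -0.92 to 0.48 for Csf1r, -0.64 to 0.96 for Cd163, -0.18 to 0.46 for Mrc1, -0.31 to 0.0112 for Cd14, -1.71 to 0.69 for Lyz2, -0.19 to 0.13 for C1qa, -0.22 to 0.33 for C1qb, -1.11 to 0.60 for C1qc and 0.08 to 0.24 for Cd68, which kept its sign. On slide 3 alone Cd163 (-0.56), Mrc1 (-0.33) and C1qb (-0.0627) reversed. On slide 1 alone Adgre1 (0.17), Csf1r (0.11), C1qa (0.0294) and C1qc (0.0731) did, and on slide 2 alone Adgre1 (0.0161), Cd14 (0.0708) and C1qa (0.24). Without DEHP mouse 4 and vehicle mouse 1, Csf1r (0.19), Lyz2 (0.17) and C1qc (0.22) reversed, and with processed signals C1qb (-0.12) did. The fits on slide 1 alone and on slide 2 alone, offset 0 and the omission of both mice were chosen after seeing the data. With the mouse number as a replicate block the median was -0.14 and 0 members passed. Across genes, deviations of same-numbered mice from their group means correlated at r = -0.73 (number 1) and -0.56 (number 4). With 2 DEHP mice, both r rest on 1 set of DEHP deviations that differ only in sign. Whether the numbers pair the mice was therefore not tested.

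Between extracts, counts of 7 ran from 5 to 8 (DEHP mouse 4 against 1) and 6 to 8 (vehicle mouse 1). Some alternatives measured fewer than 10 members, the authors' table among them. With probes well above background on every array, 6 of 7 passed between the DEHP mice and 7 of 7 for vehicle mouse 1. The 8 of vehicle mouse 4 against 2 became 2 with processed signals and 5 without slide 1. Cd14 reversed in the authors' deposited table (-0.0543) between the DEHP mice, C1qa (0.0625, processed signals) and Cd68 (0.13, without slide 1) in vehicle mouse 1, and Csf1r (-0.0204, processed signals) in vehicle mouse 4. The cause was not tested. The table holds 6 members, and its row key was inferred. A dye effect per slide could not be fitted for the groups or for vehicle mouse 4, since slides 1 and 2 hold 1 orientation each, and the vehicle mouse comparisons could not be made without slide 3. Signals of C1qa, C1qb and Cd68 near background limit what their values show.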
